A study of Mus musculus with 21 samples.

Results

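Gall bladder tuft cells were compared with tuft cells of 4 other mouse tissues: small intestine, colon, thymus and trachea. The gall bladder group was every library whose title marks it as gall bladder tuft, 3 of the 21 libraries in the series and 3 of its 18 tuft libraries. The other tuft groups held 3 small intestine, 4 colon, 4 thymus and 4 trachea libraries, 15 in all. Tuft cells were sorted as DAPI-;CD45-;EPCAM+;Flare25+, that is, living cells without the leukocyte antigen CD45, with the epithelial antigen EPCAM and with the reporter of the Il25 gene. All mice were naive C57BL6.Il25(Flare25/Flare25) animals, so both alleles of the locus used for the sort carried the reporter in every group, and no group lacked it. Small intestine, colon, gall bladder and thymus libraries each came from 1 male mouse of 12 weeks. Each trachea library pooled 4 mice of 12, 14 or 16 weeks, and 2 of the 4 pools were female. EDTA was used to free the epithelium of gall bladder, small intestine and colon, Liberase with DNase to digest thymus, and Dispase with trypsin to digest trachea, so preparation and tissue cannot be told apart for thymus and trachea. The numbers in the titles of the gall bladder libraries are 1, 3 and 4; the other replicate was discarded by the submitters for failed quality control.

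The gall bladder libraries were made from 1750, 2200 and 2700 sorted cells and held 45773963, 29031373 and 44548956 counts. Totals of all tuft libraries ran from 25739248 to 70243068. Cell numbers were far apart between tissues, from 130 to 453 in trachea and 1350 to 1900 in thymus to 13500 to 16000 in colon and 35000 to 36000 in small intestine. The share of mitochondrial counts was 14.8% to 17.0% in gall bladder, 24.1% to 33.5% in small intestine, 17.7% to 23.0% in colon, 4.38% to 5.97% in thymus and 5.57% to 10.1% in trachea. Pairs of gall bladder libraries correlated at 0.859 to 0.864 (Pearson's r of log2 CPM across genes, which are not independent replicates). Gall bladder libraries correlated with small intestine libraries at 0.811 on average, with colon at 0.794, with trachea at 0.755 and with thymus at 0.704. The part of cell number and mitochondrial share in the differences below was not tested, nor was that of sex and age in trachea. Levels are in CPM, counts scaled to a common library size by TMM, edgeR's trimmed mean of M-values.

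Tuft cells are rare epithelial cells that sense luminal contents through a taste-like cascade ending in the cation channel TRPM5. They secrete IL-25, lipid mediators and acetylcholine, and they depend on the transcription factor POU2F3. The gall bladder and the extrahepatic bile ducts arise from the embryonic foregut, where SOX17 separates the biliary from the pancreatic fate and the HNF6 family (ONECUT1 and ONECUT2) and HHEX act in biliary development. Bile duct epithelium modifies bile by moving bicarbonate, chloride, water and bile acids.

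Gall bladder tuft cells expressed the biliary transcription factors Sox17, Onecut1 and Hhex and the Ras exchange factors Rasgrf1 and Rasgrp3, which were near 0 in the other tuft groups, and 10 of 21 Hox A and B genes were called lower in them. Of 38 tuft core genes, 18 were called higher, Trpm5 and Dclk1 among them, and 3 lower (Sucnr1, Gnat3 and Matk). The summed level of these 38 genes was below that in small intestine and above that in the other 3 tissues. Several interferon-stimulated genes were lower. Of 19850 genes tested, 2521 (12.7%) were called higher in gall bladder tuft and 1744 (8.79%) lower than the unweighted mean of the other 4 groups, with a fold of 2 or more and an adjusted p below 0.05 (edgeR quasi-likelihood F test, two-sided, Benjamini-Hochberg adjustment). DESeq2 on the same genes called 2384 higher and 3328 lower, so the share of calls that were higher was 59.1% in edgeR and 41.7% in DESeq2. Against the EDTA-prepared tissues alone, small intestine and colon, 2519 genes were higher and 2469 lower, and 1709 of the former and 1276 of the latter were also called in the comparison with all 4. A stricter set of 184 genes (0.927%) was called higher in gall bladder than in each of the 4 other groups, and 312 (1.57%) lower than in each. These counts moved with the method and with single libraries: DESeq2 gave 288 and 697, limma voom with sample weights 311 and 95. Leaving out small intestine library 2 lowered them to 104 and 207, and leaving out library 3 or 4 of that tissue lowered the first to 115 or 106. All 3 gall bladder libraries lay above all 15 others for 549 genes (2.77%) and below all 15 for 368 (1.85%). The mean of the others is a mean of logarithms, so a gene near 0 in thymus and trachea can be called higher although small intestine or colon matches gall bladder. A gene can likewise be called lower although another tissue is as low as gall bladder. Levels are therefore given by tissue, but for many genes only for the highest or next highest tissues. The median log2 difference over all genes tested was -0.195.

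**Figure D1:**
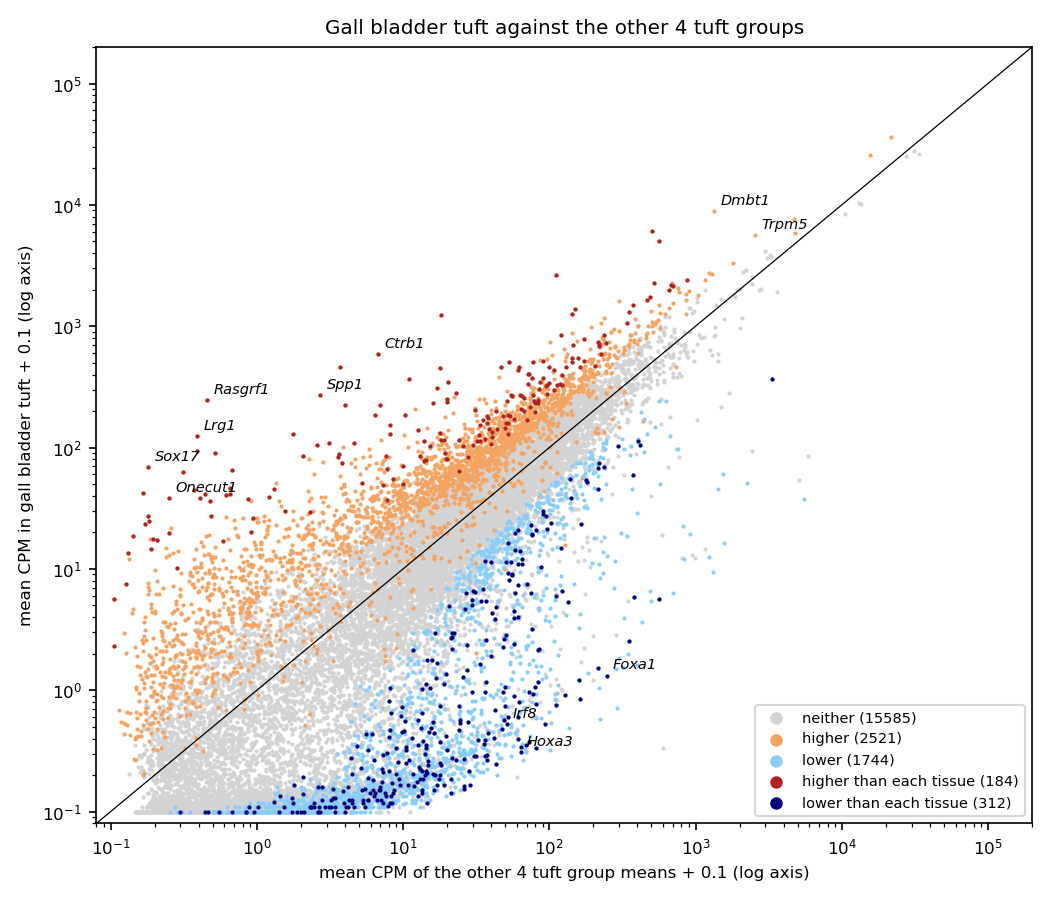
Mean CPM of each of the 19850 tested genes in gall bladder tuft (y axis, 3 libraries) against the mean of the other 4 tuft group means (x axis, 15 libraries), both plus 0.1 on log axes, coloured by call; the line marks equal levels. Sox17, Rasgrf1, Onecut1, Lrg1, Spp1 and Ctrb1 lie far above the line, and Foxa1, Irf8 and Hoxa3 far below it.

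Sox17, the biliary fate factor, was near 0 in every tuft library outside the gall bladder. It was at 77.5, 62.5 and 67.0 CPM in gall bladder libraries 1, 3 and 4, and at 0 to 0.354 CPM in the 15 others, which held 56 counts in all against 7439 in the 3 gall bladder libraries. The groups did not overlap, and the gall bladder libraries lay close together. The log2 difference was 9.85 ± 1.00 (± standard error, SE, here and below; adjusted p = 1.12e-06). The gene lies at chr1:4490931-4497354 on the minus strand (GRCm38 coordinates of GENCODE M21).

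Onecut1 (HNF6) was at 20.1, 23.0 and 71.7 CPM in the gall bladder libraries, highest in library 4, and at no more than 1.03 CPM elsewhere (log2 difference 8.52 ± 1.09, adjusted p = 1.47e-05). Hhex, a homeobox gene needed for liver and bile duct formation, was at 36.7, 30.5 and 72.5 CPM and at most 2.66 CPM in any other tuft library (log2 difference 7.09 ± 0.90, adjusted p = 1.36e-05). Without library 4, Onecut1 was still called against the mean (adjusted p = 2.81e-04) but not against each tissue. Sox17, Onecut1 and Hhex were the members of a list of 18 biliary and foregut transcription factors that were called higher than in each other tissue. Where a gene is near 0 outside the gall bladder, its fitted difference depends on the prior count, and the levels carry the comparison.

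Of those 18 factors, 12 were called higher, 3 lower and 3 neither, with a median log2 difference of 1.72. Over all genes tested, 12.7% were higher and 8.79% lower, and these shares stand beside every list count below. Without gall bladder libraries 1, 3 and 4 in turn, 1, 1 and 2 of the 18 were lower. Against the EDTA tissues alone, 9 were higher and 4 lower. Onecut2, the paralog of Onecut1, was at 612, 651 and 960.3 CPM in gall bladder and 393 ± 61.7 CPM (mean ± SD here and below) in small intestine, and under 10 CPM on average in colon, thymus and trachea. Its 3 gall bladder libraries lay above all others, so Onecut2 was shared with small intestine tuft at a lower level there, while Onecut1 was not. Foxa2, a pioneer factor of endoderm, was at 26.8, 46.6 and 37.0 CPM against at most 14.0 in the others (log2 difference 3.34 ± 0.75, adjusted p = 0.00327).

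Nuclear receptor Nr5a2, a regulator of bile acid synthesis genes, was at 93.4, 148 and 227 CPM, 105 ± 14.0 in colon and 45.6 ± 15.2 in small intestine, and near 0 in thymus and trachea (log2 difference 4.61 ± 0.43, adjusted p = 4.80e-07). Prox1, a factor of liver and gut endocrine lineages, was at 225, 209 and 187 CPM and 230.0 ± 88.3 in trachea. Hes1, the Notch target, was at 94.9, 127 and 199 CPM; its call was lost without gall bladder library 4 (adjusted p = 0.121). Hnf4a and Gata6, called higher, were low in thymus and trachea. Hnf4a was at 528, 201 and 127 CPM in gall bladder but 502 ± 51.1 in small intestine and 776 ± 146 in colon, and against those EDTA tissues alone it was lower by 1.14 on the log2 scale (log2 difference -1.14, adjusted p = 0.0275). Gata6 was 45.8, 74.5 and 79.8 CPM against 88.1 ± 8.27 in small intestine, and its difference from the EDTA tissues was -0.40 (adjusted p = 0.228).

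Foxa1, the paralog of Foxa2 and like it a pioneer factor, went the other way and was called lower than in each other tissue. It was at 2.997, 0.11 and 0.546 CPM in gall bladder, 42.8 ± 15.5 in small intestine, 83.9 ± 9.38 in thymus, 221 ± 41.6 in colon and 641 ± 339.7 in trachea (log2 difference -6.92 ± 0.76, adjusted p = 2.52e-06). No gall bladder library reached the lowest other library, at 31.4 CPM. Gata4 and Hnf4g, factors of proximal gut, were called lower and were highest in small intestine, at 133 ± 37.4 and 204 ± 6.37 CPM, against 0.538, 0.183 and 1.59 and 1.43, 7.05 and 5.73 CPM in gall bladder. Trachea was as low, with 74 and 509 counts of them in all, against 90 and 480 in gall bladder. The Gata4 call was lost without gall bladder library 1 or 3 (adjusted p = 0.068 and 0.0651) and the Hnf4g call without any 1 of the 3 (adjusted p = 0.144, 0.0613 and 0.0786). Sox9, a biliary and progenitor factor, was at 929, 786 and 1286 CPM with a log2 difference of 0.83 ± 0.18, under the fold threshold. Of the 3 markers named for these cells, Sox17, Rasgrf1 and Onecut1, all were called higher than in each other tissue. These markers were given with the series for gall bladder tuft, so their calls here are not independent evidence.

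**Figure D2:**
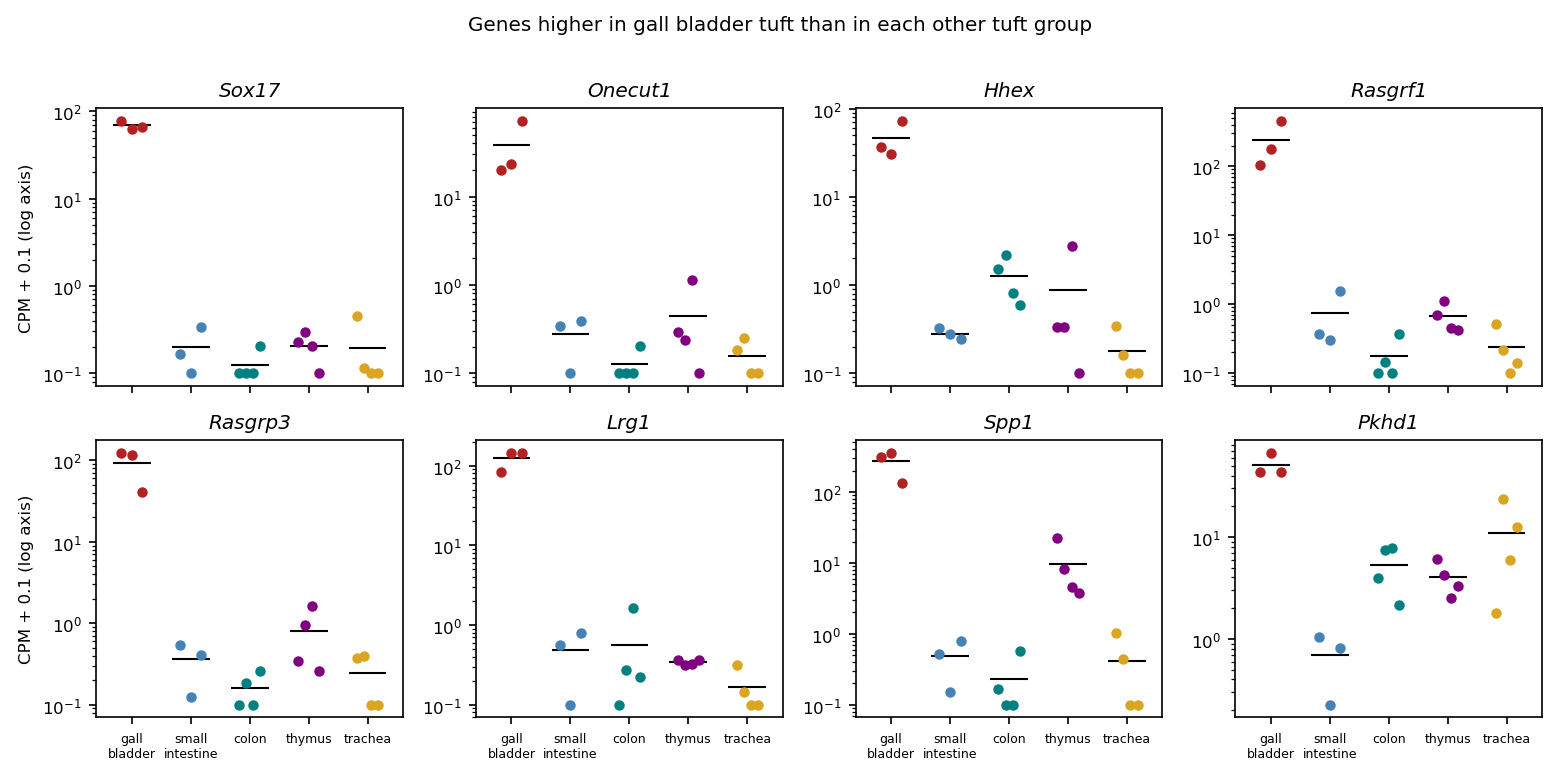
CPM plus 0.1 on a log axis in each tuft library (points) with the group mean (line) for 8 genes called higher in gall bladder tuft than in each other tuft group. The 3 gall bladder points lie above all 15 others in each panel, and Pkhd1 shows the smallest gap.

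Hox genes mark position along the body axis. Of 21 Hox A and B cluster genes tested, 10 were called lower and none higher, with a median log2 difference of -5.15, and 6 had no count in any gall bladder library. The summed level of the 21 genes was 1.33, 0.475 and 8.19 CPM in gall bladder libraries 1, 3 and 4, 37.9 to 49.2 in small intestine, 455 to 524 in colon, 20.1 to 35.1 in thymus and 194 to 599.6 in trachea. Hoxa3 was at 0.333, 0.219 and 0.0744 CPM in gall bladder (22 counts in all) and 3.55 ± 1.34 in thymus, 10.6 ± 2.36 in small intestine, 66.6 ± 11.3 in colon and 174 ± 127 in trachea (log2 difference -6.93 ± 0.68, adjusted p = 7.85e-07). Hoxa7 was at or below 0.149 CPM in gall bladder and 92.0 ± 22.2 in colon. Hoxa2, Hoxa5 and Hoxb4 were likewise called lower than in each tissue, with 6 counts of Hoxa2 in gall bladder against 17503 elsewhere, and at most 0.231 CPM of Hoxa5 and 0.0512 CPM of Hoxb4. Without gall bladder libraries 1, 3 and 4 in turn, 7, 7 and 6 Hox genes were called lower, and 18 against the EDTA tissues alone.

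Of 16 transcription factors that mark the other organs, 1 was called higher and 4 lower (median log2 difference -2.89). The intestinal factor Cdx2 was at 0.384, 0.146 and 0.447 CPM in gall bladder, 57.2 ± 27.1 in small intestine and 80.3 ± 35.3 in colon, while its paralog Cdx1 was at 20.3, 30.3 and 27.9 CPM, 104 ± 10.1 in small intestine and 116 ± 13.3 in colon. Trachea held 42 counts of Cdx2 in all, and gall bladder 37. Cdx1 was not called against all 4 tissues but was lower against the EDTA tissues (log2 difference -2.06, adjusted p = 5.20e-05). The airway factor Nkx2-1 was at 0.768, 0 and 0 CPM against 166 ± 55.3 in trachea, and Pax9, of pharyngeal endoderm, at 0.307, 0 and 0.0744 CPM against 53.6 ± 8.80 in thymus. Small intestine held 9 counts of Pax9 in all, and gall bladder 15. Foxj1, the factor of motile cilia, was the 1 called higher, at 2.66, 45.3 and 85.6 CPM; thymus was at 61.3 ± 25.2, and the call was lost without gall bladder library 4 (adjusted p = 0.184).

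The windows upstream of 3 genes are shown because the genes are among those higher than in each other tissue: Rasgrf1 with the largest difference among those whose gall bladder libraries all lay above the other 15 and that averaged at least 20 CPM in gall bladder, and Spp1 and Pkhd1 as bile duct genes. Each is the 250 bases before a RefSeq gene start (GRCm38.p6), 5′ to 3′ on the gene's strand, at chr9:89909525-89909774 (plus strand), chr5:104434861-104435110 (plus strand, the upstream of the pair of Spp1 starts) and chr1:20618058-20618307 (minus strand). They are in lower case throughout, since they hold none of the 3 motifs described after them. The window of the other Spp1 start, at chr5:104435942-104436191, does hold 1 of them, the octamer ATGCAAAT, beginning 210 bases before that start.
Rasgrf1: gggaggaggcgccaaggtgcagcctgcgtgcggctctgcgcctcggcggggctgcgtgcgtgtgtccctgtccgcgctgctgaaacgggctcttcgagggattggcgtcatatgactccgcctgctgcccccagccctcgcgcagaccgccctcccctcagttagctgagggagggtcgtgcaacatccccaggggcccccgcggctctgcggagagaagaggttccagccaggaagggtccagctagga
Spp1: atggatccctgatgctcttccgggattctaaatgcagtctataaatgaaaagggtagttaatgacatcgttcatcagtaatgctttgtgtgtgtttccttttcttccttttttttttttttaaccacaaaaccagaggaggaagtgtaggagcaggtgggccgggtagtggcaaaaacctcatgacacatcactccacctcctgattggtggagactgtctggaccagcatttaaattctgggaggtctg
Pkhd1: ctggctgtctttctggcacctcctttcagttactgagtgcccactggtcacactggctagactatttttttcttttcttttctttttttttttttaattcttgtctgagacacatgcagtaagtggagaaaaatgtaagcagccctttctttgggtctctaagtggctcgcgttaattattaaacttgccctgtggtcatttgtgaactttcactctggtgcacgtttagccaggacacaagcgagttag
Of 134 genes of the restricted set with a window, 6.0% held the ONECUT core ATCAAT on either strand, against 5.0% of the 13384 tested genes with a window and 7.7% of all 27025 genes with one. For the SOX core AACAAT the 3 shares, in the same order, were 5.2%, 7.1% and 10.9%, and for the octamer ATGCAAAT they were 3.0%, 1.7% and 1.8%. None of these 3 motifs contains another. A match or its absence describes the letters of these windows only.

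Exchange factors load Ras with GTP, and 2 of them were called higher in gall bladder than in each other tissue. Rasgrf1, a calcium-responsive exchange factor best known from neurons, was at 104, 177 and 455 CPM in gall bladder libraries 1, 3 and 4 and at no more than 1.43 CPM in the others (log2 difference 9.90 ± 0.74, adjusted p = 3.86e-08). The 3 libraries held 27209 counts and the 15 others 243; the gall bladder levels were unequal, with library 4 highest, but far from the rest. Rasgrp3, an exchange factor that responds to diacylglycerol, was at 124, 116 and 40.3 CPM, lowest in library 4, and at most 1.55 CPM elsewhere (log2 difference 8.81 ± 0.87, adjusted p = 8.31e-07). Rasgrf2, the paralog of Rasgrf1, was expressed in all tissues, at 107, 86.6 and 89.0 CPM in gall bladder and 49.8 ± 3.31 in small intestine, the next highest group (log2 difference 1.30 ± 0.35, adjusted p = 0.0106).

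Of 32 Ras exchange factors, GTPase-activating proteins and Ras proteins, 6 were called higher and 6 lower, with a median log2 difference of 0.222. Over all genes tested, 12.7% were higher and 8.79% lower. Without gall bladder libraries 1, 3 and 4 in turn, 2, 3 and 4 of the 32 were lower. Rras, a Ras relative, was at 188, 150.4 and 56.4 CPM and 61.4 ± 6.45 in small intestine (log2 difference 1.87 ± 0.38, adjusted p = 0.00142). Hras was at 167, 99.9 and 43.2 CPM, and its call (adjusted p = 0.0435) was lost without gall bladder library 1 or 3 or thymus library 1 or 2 (adjusted p = 0.374, 0.0966, 0.0554 and 0.0535) and, in all, in 13 of 27 alternatives. Rapgef5, an exchange factor for Rap, was at 90.7, 22.3 and 60.3 CPM, and its call was also lost without library 1 (adjusted p = 0.0657). Sos1, the general Ras exchange factor, was lower, at 30.0, 57.7 and 22.2 CPM against 311 ± 69.9 in thymus and 228 ± 80.0 in trachea (log2 difference -1.95 ± 0.35, adjusted p = 4.53e-04). Arhgap36, which carries a GTPase-activating fold, was at 29.9, 14.7 and 29.0 CPM and at most 0.972 CPM in the others.

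The remaining largest increases were of varied function. Lrg1, a secreted leucine-rich glycoprotein of the acute phase, was at 83.7, 143 and 146 CPM and at most 1.56 CPM elsewhere (log2 difference 9.03 ± 0.88, adjusted p = 7.57e-07). Spp1, the secreted phosphoprotein osteopontin and a marker of bile duct epithelium, was at 313, 359 and 135 CPM; thymus followed at 9.64 ± 8.70, and no other library reached the lowest gall bladder value (log2 difference 8.71 ± 0.84, adjusted p = 6.89e-07). Ambp, the precursor of alpha-1-microglobulin and bikunin, was at 660.3, 285 and 438 CPM against 7.70 ± 1.37 in small intestine (log2 difference 7.43 ± 0.63, adjusted p = 1.82e-07). Ildr2, of the immunoglobulin-like domain receptors, was at 139.9, 82.9 and 47.7 CPM and at most 2.31 CPM elsewhere.

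S100b, a calcium-binding protein of glia, and Kcnt2, a sodium-activated potassium channel, were both highest in library 1, at 92.3, 14.1 and 27.5 and 82.6, 12.4 and 19.4 CPM, and did not pass 2.38 and 3.11 CPM outside the gall bladder. Tcerg1l was at 63.4, 52.6 and 6.85 CPM, lowest in library 4, with 2.14 ± 0.849 in thymus. Tie1, an orphan receptor kinase of endothelium, was at 33.0, 71.3 and 20.9 CPM and at most 2.41 elsewhere, and its partner Tek was at 194, 428 and 94.3 CPM with 149 ± 36.8 in trachea. Of 6 endothelial markers tested, 3 were higher (Tie1, Tek and Egfl7) and 1 lower (Pecam1; none lower without gall bladder library 1 or 4, and 2 without trachea library 1), and 3 of the 10 listed had no count in any gall bladder library. Their summed level was 229, 508 and 121 CPM in gall bladder libraries 1, 3 and 4, 25.9 to 38.0 in small intestine, 13.6 to 29.9 in colon, 56.6 to 145 in thymus and 125 to 192 in trachea; its part in the Tie1 result was not tested.

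Several genes of the restricted set depended on single libraries. Pkhd1 and Ttr stayed called against the mean of the others but not against each tissue when any 1 gall bladder library was left out, as did Ctrb1, Kcnt2 and S100b without library 1 and Fyb without library 4. For 3 others, 1 gall bladder library held most of the signal. C2cd4c was at 1.15, 0.0365 and 69.3 CPM, and without library 4 it was not called (adjusted p = 0.136). Stpg3 was at 98.8, 0.548 and 8.19 CPM, and without library 1 it was not called (adjusted p = 0.0565). Wnt7a, a secreted Wnt ligand, was at 0.0768, 76.6 and 5.58 CPM; in library 1 it was at the level of the other tissues, which reached 1.24 CPM. Without library 3 its adjusted p against the mean of the others was 0.00562. Without library 3 or 4, Wnt7a was no longer called against each tissue, and neither was Stpg3 without library 4.

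Of 23 gall bladder and bile duct epithelium markers tested, 11 were called higher and 5 lower than the mean of the other tuft groups (median log2 difference 1.55); 4, 3 and 4 were lower without gall bladder libraries 1, 3 and 4 in turn. Muc1, a membrane mucin of ductal epithelium, was at 1770.0, 1415 and 1638 CPM in gall bladder, 983 ± 433 in trachea, 194 ± 42.5 in thymus and under 20 CPM on average in small intestine and colon (log2 difference 4.52 ± 0.26, adjusted p = 1.19e-09). Gall bladder and trachea overlapped, and the intestinal groups stood far below. Aqp1, the water channel of bile duct cells, was at 753, 285 and 98.5 CPM, highest in library 1, and at most 96.6 CPM in the others (log2 difference 4.39 ± 0.53, adjusted p = 8.02e-06). Mmp7, a matrix protease, was at 70.4, 101 and 130.0 CPM against 36.5 ± 18.9 in thymus, without overlap (log2 difference 5.45 ± 0.47, adjusted p = 1.91e-07).

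Pkhd1, the fibrocystin gene of bile duct and kidney cilia, was at 42.8, 67.0 and 42.8 CPM against 10.9 ± 9.55 in trachea, the next highest (log2 difference 3.90 ± 0.54, adjusted p = 3.61e-05). Anxa13, an annexin, was at 275, 118 and 103 CPM in gall bladder and 163 ± 25.2 in small intestine. Tff2, a trefoil factor, was at 8.97, 16.2 and 26.9 CPM and 22.1 ± 31.2 in trachea. Dcdc2a was at 5.66, 35.1 and 6.60 CPM, and its call was lost without library 3 (adjusted p = 0.0577). The keratins of bile ducts did not separate the groups: Krt19 was at 645, 577 and 429 CPM (log2 difference -0.11 ± 0.19), and Krt7 at 63.8, 138 and 65.9 CPM (0.54 ± 0.31), neither called against all 4 tissues.

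Some bile duct markers were at low levels. Cftr, the chloride channel of the duct epithelium, was at 0.384, 0.584 and 0.273 CPM in gall bladder tuft, 189 ± 35.5 in colon, 48.2 ± 1.59 in small intestine and 23.7 ± 8.87 in thymus (log2 difference -6.21 ± 1.44, adjusted p = 0.00419). The ileal bile acid carrier Slc10a2, at 2.48, 10.2 and 5.58 CPM, was low in level but called higher than the mean of the others (log2 difference 4.92 ± 0.98, adjusted p = 0.00125), with library 1 inside the range of the others, which reached 3.38 CPM, while the basolateral bile acid exporter subunit Slc51a was at 0.205, 0.11 and 0.595 CPM against 90.2 ± 10.5 in small intestine. Trachea held 42 counts of Slc51a in all, and gall bladder 35. The markers' summed level was 4985, 3996 and 3930.4 CPM in gall bladder libraries 1, 3 and 4, 1687 to 1797 in small intestine, 2088 to 2365 in colon, 1075 to 1433 in thymus and 4027 to 8386 in trachea. How far these levels come from tuft cells themselves and how far from neighbouring epithelium was not tested, and no library of gall bladder cells outside the reporter gate was used here. In bulk libraries, fewer cells of a type and less RNA per cell cannot be told apart.

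Genes of organs next to the gall bladder gave a mixed picture. Ctrb1, a digestive protease of the pancreas, was at 1068, 581 and 114 CPM in gall bladder and 24.6 ± 14.9 in thymus (log2 difference 8.48 ± 0.96, adjusted p = 4.01e-06), but of 7 acinar markers tested it was the only one called, and 8 of the 14 listed had no count in any gall bladder library. Ttr, the thyroid hormone carrier made in liver, was at 194, 120.3 and 146 CPM and at most 32.5 CPM elsewhere (log2 difference 5.58 ± 0.62, adjusted p = 2.85e-06), while albumin (Alb) was at 0.0512, 0 and 1.59 CPM. Of 14 hepatocyte markers tested, Ttr was the only one higher and 4 were lower, but none was lower without gall bladder library 1 or without library 3. The level of the 14 acinar markers was thus almost wholly Ctrb1.

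**Figure D3:**
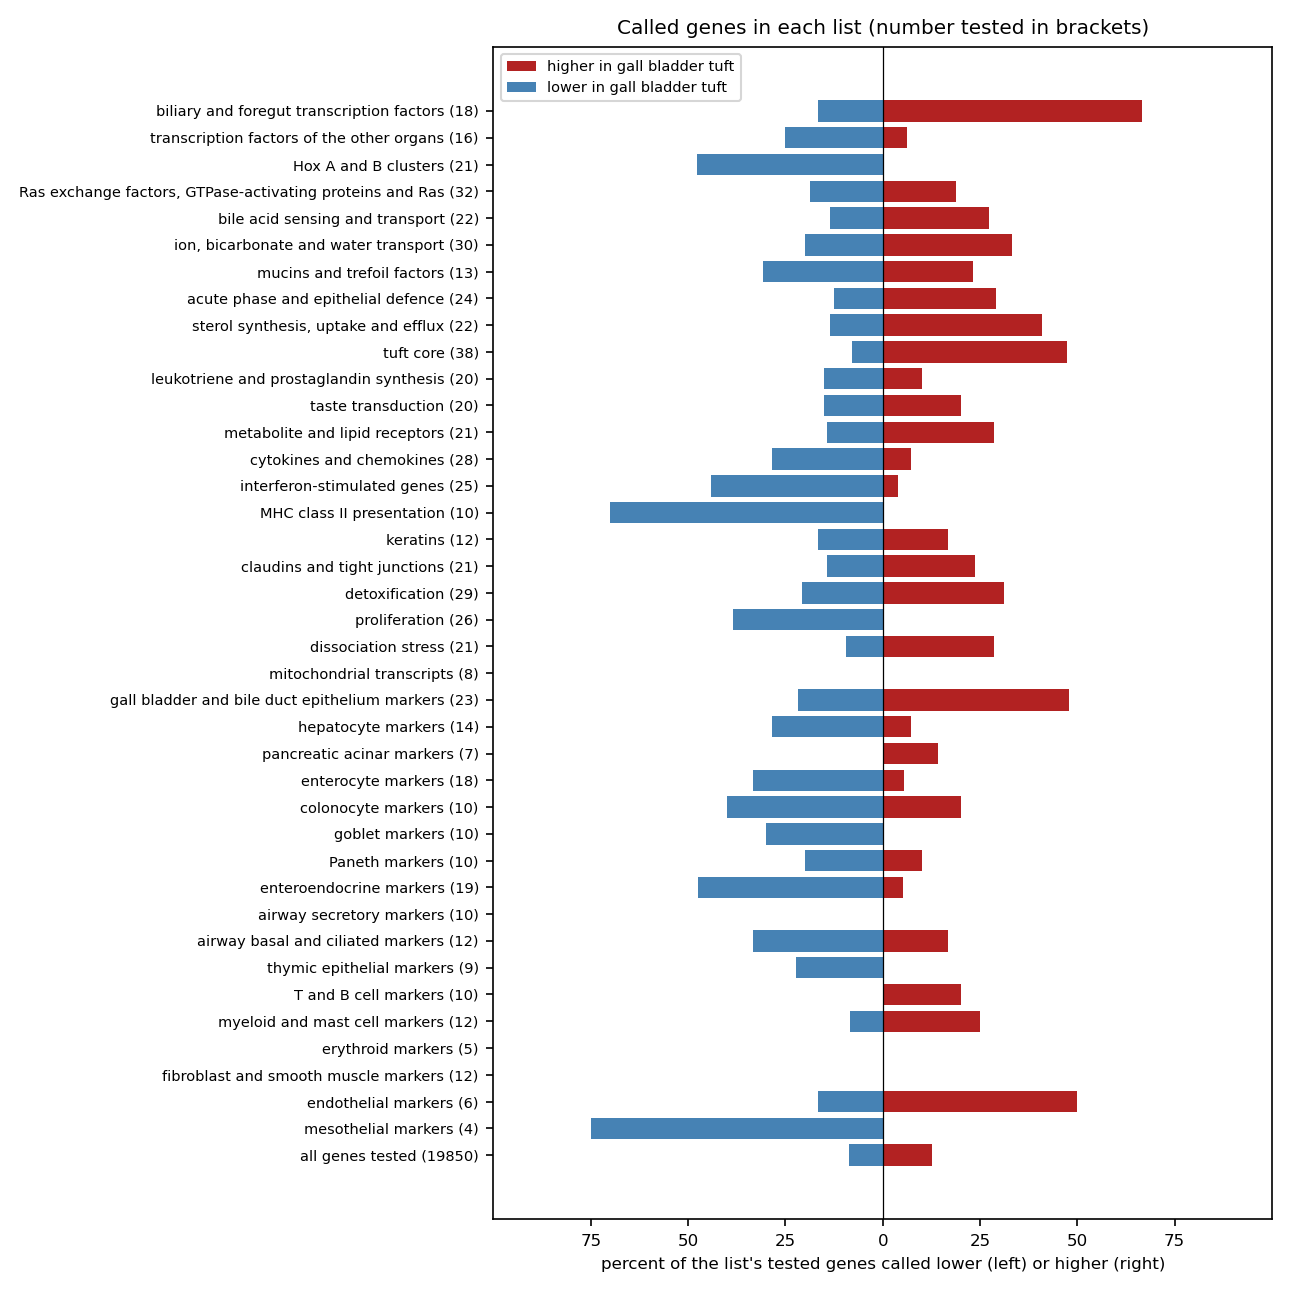
Percent of the tested genes of each list called higher (red, right) or lower (blue, left) in gall bladder tuft than the mean of the other 4 tuft groups, with all 19850 genes in the bottom row. Biliary and foregut transcription factors have the largest share higher of the function lists (12 of 18), and MHC class II the largest share lower (7 of 10).

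Of 22 bile acid sensing and transport genes, 6 were higher and 3 lower (median log2 difference -0.205). Slco2a1, a prostaglandin carrier, was at 527, 340.0 and 451 CPM, above all others, with 264 ± 23.0 in thymus (log2 difference 1.89 ± 0.25, adjusted p = 2.45e-05). Chrm3, the muscarinic acetylcholine receptor of smooth muscle and glands, was at 16.6, 32.8 and 29.2 CPM against at most 4.55 (log2 difference 5.14 ± 0.90, adjusted p = 4.01e-04). Abcc3, an exporter of conjugated bile acids, was at 326, 458 and 398 CPM and close to 309 ± 34.3 in colon. The bile acid receptor Nr1h4 (FXR) was at 1.43, 8.58 and 9.82 CPM, below 23.9 ± 2.61 in small intestine and 66.3 ± 23.3 in colon (log2 difference -2.57 against these, adjusted p = 0.00472). The vitamin D receptor Vdr, which also binds bile acids, was at 62.1, 98.2 and 103 CPM, against 555 ± 97.1 and 815 ± 182 in the same tissues (-2.93, adjusted p = 7.32e-06). Neither receptor was called against all 4 tissues.

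Of 30 ion, bicarbonate and water transport genes, 10 were higher and 6 lower (median log2 difference 0.343). The sodium bicarbonate cotransporter Slc4a4 was at 489, 437 and 398 CPM in gall bladder and 128 ± 25.2 in colon, the next highest, without overlap (log2 difference 3.25 ± 0.45, adjusted p = 3.77e-05). Carbonic anhydrase Car2 was at 519, 134 and 113 CPM and 418 ± 14.9 in colon. The calcium-activated chloride channel Ano1 was at 60.1, 52.6 and 82.4 CPM, matched by trachea at 57.6 ± 22.1. The sodium-proton exchangers diverged: Slc9a3 was at 104, 95.6 and 38.7 CPM and 111 ± 31.4 in colon, and Slc9a2 at 15.3, 6.83 and 16.5 CPM, below all 15 others (log2 difference -2.32 ± 0.44, adjusted p = 8.63e-04).

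Kcnq1, a potassium channel of secretory epithelia, was at 207, 108 and 103 CPM, with the call lost without library 1 (adjusted p = 0.0623). The chloride loader Slc12a2 was at 22.8, 11.6 and 37.0 CPM and called lower than in each other tissue (log2 difference -1.87 ± 0.38, adjusted p = 0.00151). Among water channels, Aqp4 was at 0.973, 0 and 0.322 CPM against 252 ± 76.6 in colon, 84.6 ± 56.0 in trachea, 23.1 ± 5.03 in thymus and 11.9 ± 4.83 in small intestine (log2 difference -6.78 ± 0.84, adjusted p = 1.04e-05). Aqp3 was at most 0.174 CPM in gall bladder and 23.5 ± 11.8 in thymus, but colon was as low, with 23 counts in all against 13 in gall bladder. Aquaporins thus moved in both directions, Aqp1 higher and Aqp4 lower than in every other library.

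The pore-forming claudin Cldn2 was at 729, 465 and 408 CPM, above all others, with colon at 307 ± 69.1 (log2 difference 3.86 ± 0.69, adjusted p = 4.93e-04). Cldn15, the sodium-conducting claudin of the gut, was at 3.20, 0.986 and 3.22 CPM against 275 ± 56.0 in small intestine (log2 difference -3.20 ± 0.77, adjusted p = 0.0054). Trachea was as low as gall bladder, with 215 counts of Cldn15 in all against 282. Occludin (Ocln) was at 59.9, 148 and 134 CPM and 83.1 ± 1.63 in colon. Of 21 claudin and tight junction genes, 5 were higher and 3 lower (2, 1 and 1 lower without gall bladder libraries 1, 3 and 4 in turn).

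Among mucins and trefoil factors, 3 of 13 were higher and 4 lower (median log2 difference -1.17). Without gall bladder libraries 1, 3 and 4 in turn, 3, 1 and 1 were lower, and 2 without thymus library 1 or 2. Muc13, the main membrane mucin of the gut, was at 43.0, 34.3 and 75.6 CPM in gall bladder against 5372 ± 451 in small intestine and 3377 ± 389.7 in colon (log2 difference -3.39 ± 0.31, adjusted p = 3.79e-07). Trachea held 4328 counts of Muc13 in all, against 5666 in gall bladder. Muc2, the goblet cell mucin, was at 128, 21.3 and 32.9 CPM and 5215 ± 1209 in colon. Trachea held 5894 counts of Muc2 in all, against 6885 in gall bladder. The Muc2 call was lost without gall bladder library 3 or 4 or thymus library 1 or 2 (adjusted p = 0.147, 0.139, 0.0519 and 0.0516). Dmbt1, a scavenger receptor-like mucosal glycoprotein, was among the most abundant transcripts, at 8852, 6895 and 10770.0 CPM, and above 3956 ± 923 in colon and 1186 ± 60.9 in small intestine (log2 difference 4.21 ± 0.32, adjusted p = 5.07e-08).

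Of 22 sterol synthesis, uptake and efflux genes, 9 were higher and 3 lower (median log2 difference 1.13). Abca1, which exports cholesterol to lipoproteins, was at 547, 428 and 340.1 CPM and called higher than in each tissue, with thymus next at 129 ± 15.9 (log2 difference 3.54 ± 0.27, adjusted p = 4.29e-08). The synthesis enzymes Hmgcs1, Sqle, Fdps and Fdft1 had log2 differences of 2.03 ± 0.26, 1.34 ± 0.18, 2.56 ± 0.33 and 1.40 ± 0.27 (adjusted p = 1.66e-05, 3.23e-05, 1.49e-05 and 8.05e-04). Sqle lay above all 15 others, at 533, 451 and 305 CPM, while Hmgcs1 (1192, 278 and 662 CPM), Fdps (156, 65.0 and 55.7 CPM) and Fdft1 (658, 508 and 590.0 CPM) overlapped other groups. Abcg8, a subunit of the apical sterol exporter, was at 0.564, 0.438 and 1.74 CPM and 167 ± 10.98 in small intestine. Trachea held 93 counts of Abcg8 in all, against 104 in gall bladder.

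Tuft genes were abundant in gall bladder tuft. Of 38 tuft core genes, 18 were higher and 3 lower (5 lower without gall bladder library 1) than the mean of the other tissues, with a median log2 difference of 0.911; their summed level was 46795, 39832 and 42288 CPM in gall bladder libraries 1, 3 and 4, 52249 to 63146 in small intestine, 11364 to 16009 in colon, 14309 to 16321 in thymus and 20279 to 35181 in trachea. Pou2f3 was at 265, 337 and 469.6 CPM and not called (log2 difference -0.51 ± 0.20, adjusted p = 0.0774); colon was lowest, at 184 ± 17.5, and trachea highest, at 1085 ± 295. Trpm5, the taste channel, was at 5934, 5768 and 5171 CPM, with 4830.1 ± 707 in small intestine and 3039 ± 869.6 in trachea (log2 difference 1.39 ± 0.15, adjusted p = 2.34e-06). Dclk1, the kinase used as a tuft marker, was at 3169, 3239.8 and 3549.9 CPM, with 2969.9 ± 603 in trachea (log2 difference 1.06 ± 0.14, adjusted p = 2.54e-05). Il25 was at 24.6, 43.8 and 8.11 CPM and not called (adjusted p = 0.749); its reporter set the sort gate in every group, so the cells were chosen on this locus.

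**Figure D4:**
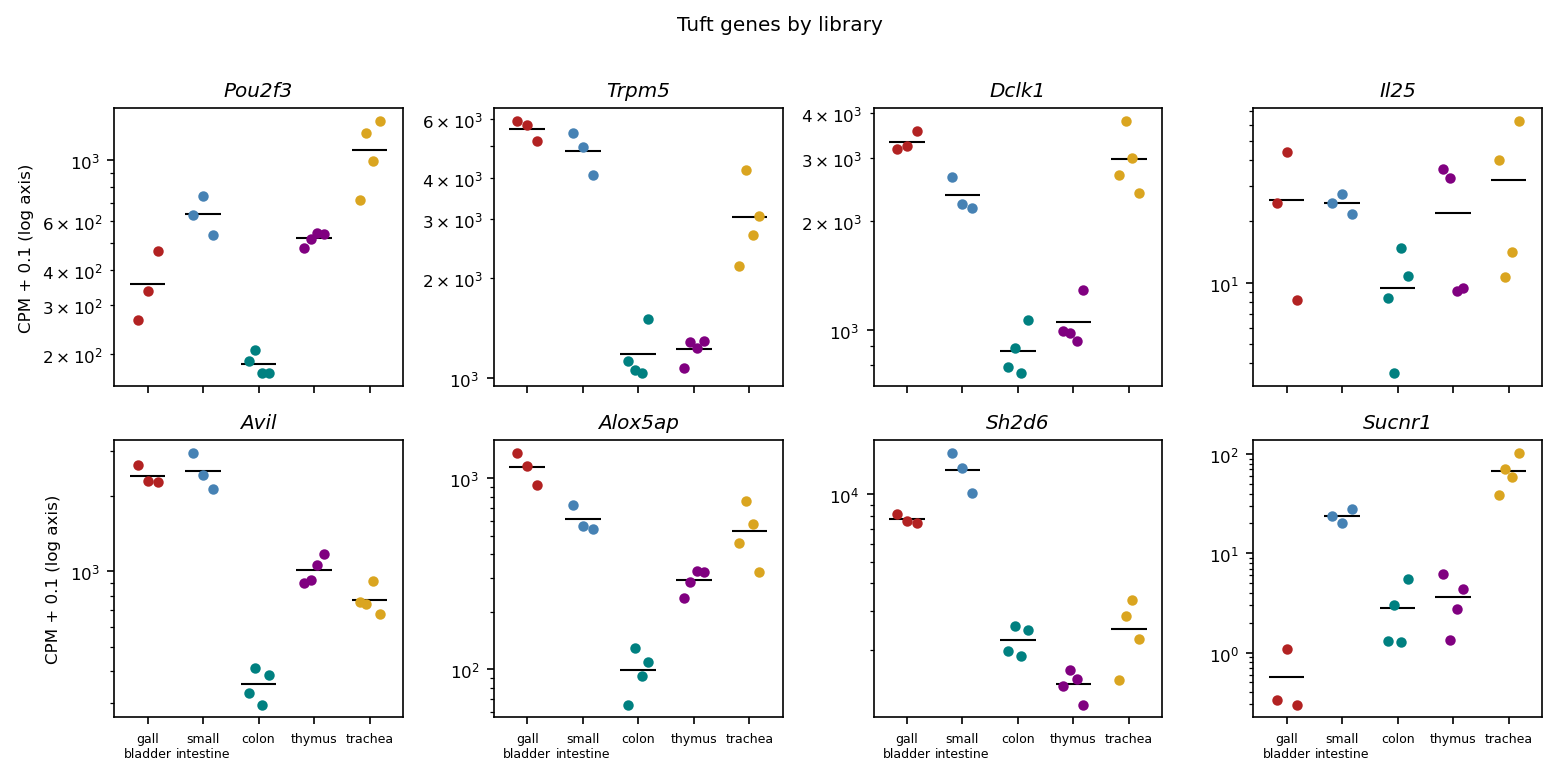
CPM plus 0.1 on a log axis in each tuft library (points) with the group mean (line) for 8 tuft genes. Gall bladder points lie in the range of the other groups for Pou2f3, Dclk1 and Il25, above them for Alox5ap and below them for Sucnr1.

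Several tuft effectors stood above every other library. Itpr2, a calcium release channel, was at 2502, 1864 and 2497 CPM against 628 ± 60.2 in small intestine, the next highest (log2 difference 2.14 ± 0.15, adjusted p = 1.98e-08), and was called higher than in each tissue, as was Fyb. Fyb, an adaptor of leukocyte signalling, was at 2302, 1868 and 3032 CPM with 1199 ± 507 in trachea (log2 difference 1.56 ± 0.19, adjusted p = 1.05e-05). Nrgn, a calmodulin-binding protein, was at 1411, 1032 and 1089 CPM with 649 ± 47.8 in small intestine (log2 difference 2.90 ± 0.30, adjusted p = 1.36e-06). Vav1, a guanine nucleotide exchange factor, was at 1839, 1377 and 1311 CPM with 1207 ± 96.5 in small intestine; the lowest gall bladder and highest other library nearly met (1311 and 1302 CPM).

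Sh2d6 was at 8142, 7587 and 7436 CPM and Avil, an actin-binding protein, at 2637, 2282 and 2274 CPM, both matched or passed by small intestine, at 12886 ± 2647 and 2504 ± 424. Krt18, the simple epithelial keratin, was at 7228, 5152 and 5334 CPM, below 13777 ± 800.1 in small intestine; against the EDTA tissues alone its log2 difference was -0.11 (adjusted p = 0.654). Siglecf, a sialic acid-binding lectin, was at 218, 224 and 492 CPM, below 1027 ± 65.4 in small intestine, with -0.27 against the EDTA tissues (adjusted p = 0.477). Gfi1b, a tuft transcription factor, was at 397, 239.8 and 301 CPM and 291 ± 27.8 in small intestine (log2 difference 1.75 ± 0.35, adjusted p = 0.00115). Chat, the enzyme of acetylcholine synthesis, was at 345, 490.4 and 492 CPM with 308 ± 64.4 in small intestine (log2 difference 1.30 ± 0.30, adjusted p = 0.00437). Matk, a kinase that inhibits Src family kinases, was lower, at 79.9, 100.3 and 114 CPM against 2138 ± 281 in small intestine and 715 ± 204 in colon, but near 66.5 ± 15.3 in thymus and 102 ± 54.4 in trachea.

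In leukotriene synthesis, Alox5ap, the protein that presents arachidonate to 5-lipoxygenase, was at 1365, 1164 and 923 CPM, and Ltc4s, which makes leukotriene C4, at 313, 146 and 152 CPM. Each lay above all 15 others, with small intestine next, at 611 ± 101 and 133 ± 11.3 (log2 difference 1.89 ± 0.20, adjusted p = 2.09e-06 and log2 difference 2.17 ± 0.27, adjusted p = 1.07e-05). Alox5, the lipoxygenase itself, was at 1232, 962 and 768 CPM, with a log2 difference of 0.86 ± 0.19 that did not reach the fold threshold, and the prostaglandin enzyme Ptgs1 at 776, 632 and 854 CPM (0.63 ± 0.16). Over the list, 2 of 20 genes were higher and 3 lower, beside 12.7% and 8.79% of all genes tested.

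Of 20 taste transduction genes, 4 were higher and 3 lower (median log2 difference -0.848). Gnat3, the taste G protein gustducin, was at 16.6, 5.33 and 27.0 CPM in gall bladder, 35.7 ± 18.8 in small intestine, 93.4 ± 20.0 in colon, 621 ± 161 in thymus and 5484 ± 2021 in trachea (log2 difference -4.32 ± 0.50, adjusted p = 4.52e-06). Its partner Gnb3 was at 3.51, 0.365 and 0.347 CPM, as low as in small intestine (2.24 ± 1.91) and colon (1.03 ± 0.343), and at 946 ± 335 in trachea. The gamma subunit Gng13 was instead above all others, at 167, 87.0 and 110.1 CPM against 62.3 ± 8.99 in trachea and 2.74 ± 0.292 in small intestine (log2 difference 3.67 ± 0.36, adjusted p = 7.60e-07). The bitter receptor Tas2r108 was at most 0.717 CPM in gall bladder and 214 ± 87.1 in trachea, and the sweet and umami receptor subunit Tas1r3 at 30.1, 12.0 and 51.7 CPM, above small intestine and colon (log2 difference 2.29, adjusted p = 0.0117) and not called against all 4. Small intestine and colon held 67 and 55 counts of Tas2r108 in all, against 31 in gall bladder. Plcb2, the phospholipase of the cascade, was at 531, 407 and 230.5 CPM (log2 difference -0.93 ± 0.33, under the fold threshold).

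Sucnr1, the succinate receptor through which small intestinal tuft cells respond to protists, was at 0.231, 0.986 and 0.198 CPM in gall bladder, 23.8 ± 4.07 in small intestine and 67.7 ± 27.1 in trachea, and lower than in each tissue (log2 difference -4.58 ± 0.80, adjusted p = 4.07e-04). Ffar3, a short-chain fatty acid receptor, was at 496, 202 and 185 CPM, between 625 ± 50.1 in small intestine and 156 ± 70.5 in colon (-0.087 against these, adjusted p = 0.862). Adora1, an adenosine receptor, was at 95.9, 276 and 195 CPM and 83.5 ± 9.46 in small intestine (log2 difference 2.10 ± 0.45, adjusted p = 0.00228). Gpr35 was at 21.03, 103 and 58.9 CPM and 60.0 ± 11.1 in colon. Of 21 metabolite and lipid receptors, 6 were higher and 3 lower (median log2 difference -0.839).

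Of 25 interferon-stimulated genes, 11 were lower and 1 higher (median log2 difference -1.26), and 8, 9 and 7 were lower without gall bladder libraries 1, 3 and 4 in turn. With voom sample weights 5 were lower, and against the EDTA tissues alone 13. The list's summed level overlapped colon and trachea. It was 2033, 1231 and 1378 CPM in gall bladder libraries 1, 3 and 4, 2888 to 3357 in small intestine, 1414 to 2436 in colon, 2044 to 2349 in thymus and 1327 to 1637 in trachea. Irf8, Sp100 and Ifi47, which are not on that list, were named for the size of their decrease against each tissue. Irf8, an interferon regulatory factor, was at 0.692, 0.0365 and 0.546 CPM in gall bladder against 28.2 ± 5.23 in small intestine, 41.0 ± 25.3 in trachea, 41.5 ± 7.96 in colon and 94.0 ± 21.5 in thymus (log2 difference -6.72 ± 0.84, adjusted p = 1.15e-05). Sp100, a nuclear body protein, was at 1.15, 0.402 and 1.04 CPM and at least 24.7 CPM in every other library (log2 difference -6.31 ± 0.51, adjusted p = 7.77e-08). Zbp1, a sensor of Z-form nucleic acid, was at 2.46, 0.84 and 2.80 CPM and at least 22.1 CPM elsewhere (log2 difference -5.28 ± 0.52, adjusted p = 7.89e-07).

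Ifi47, an interferon-inducible GTPase, was at 0.973, 0.146 and 0.645 CPM and Xaf1 at 5.02, 1.97 and 0.62 CPM, both below all 15 others (log2 difference -6.04 ± 0.71, adjusted p = 6.41e-06 and log2 difference -4.21 ± 0.58, adjusted p = 3.01e-05). Usp18, which removes ISG15, was at 5.10, 0.146 and 1.64 CPM with 79.4 ± 4.97 in thymus (log2 difference -3.44 ± 0.83, adjusted p = 0.0054). Stat2 was the 1 member called higher, at 445, 355 and 374 CPM against 298 ± 23.7 in small intestine (log2 difference 1.07 ± 0.21, adjusted p = 0.00126). Against the EDTA tissues alone Stat2 was at 0.69, under the fold threshold, and Usp18 was not called (adjusted p = 0.0571).

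Of 10 MHC class II genes, 7 were lower and none higher (median log2 difference -3.54); 6, 4 and 4 were lower without gall bladder libraries 1, 3 and 4 in turn, 3 against the EDTA tissues alone, and 1 with voom sample weights. The list's summed level was 33.0, 10.7 and 20.99 CPM in gall bladder libraries 1, 3 and 4, 38.6 to 82.1 in small intestine, 271 to 721 in colon, 7507 to 10436 in thymus and 12.9 to 54.7 in trachea. H2-Ab1, a class II beta chain, was at 6.45, 5.95 and 3.52 CPM and 1910.3 ± 224 in thymus (log2 difference -2.73 ± 0.66, adjusted p = 0.00573). Trachea held 255 counts of H2-Ab1 in all, against 557 in gall bladder. Cd74, the invariant chain, was at 15.2, 0 and 12.9 CPM and 4962 ± 1053 in thymus, and its call was lost without any 1 gall bladder library (adjusted p = 0.0756, 0.0645 and 0.0817). Ctss, the protease that trims the invariant chain, was at 0.64, 0.073 and 0.521 CPM against 72.8 ± 13.5 in colon (log2 difference -4.93 ± 0.87, adjusted p = 4.14e-04).

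Of 28 cytokine and chemokine genes, 2 were higher and 8 lower; 1 was higher without gall bladder library 4, colon library 3, thymus library 4 or any small intestine library, and 4 without trachea library 1. Cxcl16, a membrane chemokine, was at 86.1, 101 and 255 CPM, above all others (log2 difference 2.65 ± 0.48, adjusted p = 5.27e-04). Ccl25, which draws lymphocytes to thymus and small intestine, was at 2.72, 0.073 and 9.72 CPM against 375 ± 16.8 in small intestine and 263 ± 76.8 in thymus. Trachea held 200 counts of Ccl25 in all, against 500 in gall bladder. The Ccl25 call was lost without library 1 (adjusted p = 0.0951). Ccl9 was at most 0.205 CPM in gall bladder and 42.8 ± 9.44 in thymus.

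Among 24 acute phase and epithelial defence genes, 7 were higher and 3 lower, with a median log2 difference of -0.795. Without gall bladder libraries 1, 3 and 4 in turn, 5, 1 and 2 were lower. The list's summed level was 1462, 1490 and 1798 CPM in gall bladder libraries 1, 3 and 4, 1787 to 2480 in small intestine, 3084 to 3205 in colon, 2321 to 3295 in thymus and 4246 to 10994 in trachea. Complement C3 was at 146, 328 and 222 CPM, above small intestine and colon at 14.9 ± 2.95 and 6.95 ± 2.71 but below 862 ± 192 in thymus. The 4 trachea libraries held 67934 counts of C3 in all, against 23636 in the 3 gall bladder libraries. Lcn2, the siderophore-binding lipocalin, was at 10.4, 70.8 and 107 CPM with 52.5 ± 10.2 in thymus (log2 difference 5.36 ± 0.89, adjusted p = 2.52e-04). The oxidase Duox2 and its maturation factor Duoxa2 were at 405, 115 and 471 and 15.9, 78.2 and 37.6 CPM, overlapping colon at 336 ± 73.6 and 30.5 ± 8.34. Pigr, which carries immunoglobulin A into secretions, was at 613, 446 and 699.5 CPM against 1922 ± 300.2 in small intestine and 2297 ± 57.1 in colon (log2 difference -1.83 against these, adjusted p = 2.14e-05), and was under the fold threshold against all 4.

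In detoxification, 9 of 29 genes were higher and 6 lower (median log2 difference -0.643). The sulfotransferase Sult1c2 was at 109, 55.6 and 179 CPM against at most 26.1 elsewhere (log2 difference 4.82 ± 0.65, adjusted p = 2.55e-05). The quinone reductase Nqo1 was at most 0.154 CPM in gall bladder and 16.0 ± 6.84 in small intestine, 13.4 ± 4.37 in colon, 5.57 ± 3.32 in thymus and 2.36 ± 4.22 in trachea. Gstm1, a glutathione transferase, was at 75.6, 114 and 85.6 CPM with 770.0 ± 304 in trachea (log2 difference -1.89 ± 0.31, adjusted p = 2.07e-04).

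The largest decreases without overlap included genes of several functions. Lrp4, a co-receptor of agrin and a Wnt antagonist, was at 0.512, 0 and 0.248 CPM in gall bladder and 33.3 ± 7.83 in small intestine, 67.5 ± 13.1 in colon, 79.9 ± 72.5 in trachea and 98.0 ± 25.8 in thymus (log2 difference -7.93 ± 1.04, adjusted p = 1.89e-05). Plch2, a phospholipase C, was at 0.692, 0 and 0.124 CPM against 179 ± 68.6 in trachea (log2 difference -7.10 ± 0.79, adjusted p = 3.09e-06). Tst, the mitochondrial sulfurtransferase rhodanese, was at 1.49, 0.365 and 0.397 CPM and at least 10.6 CPM in every other library. Osr2, a zinc-finger factor, was at 0.692, 0.073 and 0.0992 CPM and at least 8.07 elsewhere. Knstrn, a spindle protein, and Foxred2, an oxidoreductase of the endoplasmic reticulum, held no more than 0.0992 and 0.102 CPM in any gall bladder library, and their lowest values elsewhere were 0.156 and 0.85 CPM.

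**Figure D5:**
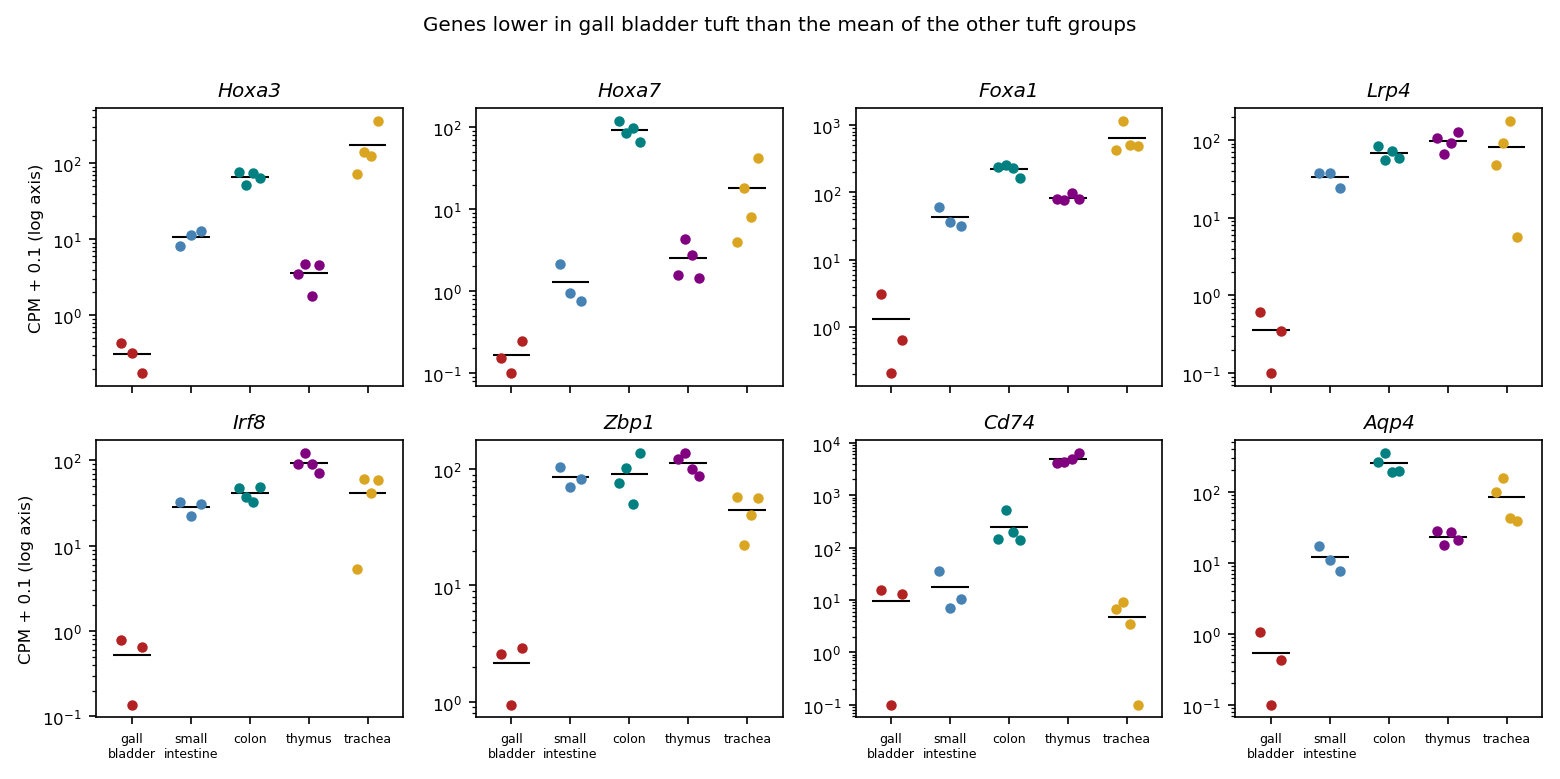
CPM plus 0.1 on a log axis in each tuft library (points) with the group mean (line) for 8 genes called lower in gall bladder tuft than the mean of the other 4 groups. The gall bladder points lie below all others for 7 of the genes; for Cd74 they overlap small intestine and trachea, and thymus stands far above.

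Of 26 cell cycle genes, 10 were lower and none higher (median log2 difference -3.06), with 6, 9 and 14 lower without gall bladder libraries 1, 3 and 4 in turn and 19 against the EDTA tissues alone. The summed level was 83.6, 131 and 157 CPM in gall bladder libraries 1, 3 and 4, 658 to 947 in small intestine, 1458 to 1991 in colon, 129 to 219 in thymus and 111 to 186 in trachea. Top2a, the mitotic topoisomerase, was at 0.0768, 0.073 and 1.36 CPM against 149.5 ± 16.8 in colon (log2 difference -5.93 ± 1.14, adjusted p = 8.95e-04), and Foxm1, a factor of mitotic genes, at 0.0768, 0 and 0.372 CPM against 42.8 ± 6.21. The Foxm1 call was lost without library 1 (adjusted p = 0.0531).

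Markers of other epithelial cells that the gate could hold were counted in the same way. Of 10 goblet markers, 3 were lower and none higher, with 5 lower without gall bladder library 1 and 6 without trachea library 2; Agr2, of the secretory pathway, was at 5.25, 0.621 and 1.54 CPM against 1019 ± 50.2 in colon and at least 12.9 CPM elsewhere (log2 difference -6.17 ± 0.65, adjusted p = 1.75e-06). Of 19 enteroendocrine markers, 9 were lower and 1 higher, and 9, 3 and 3 were lower without gall bladder libraries 1, 3 and 4 in turn, with none higher without library 1. Chgb, a granule protein, was at 14.8, 3.51 and 3.65 CPM against 335 ± 144 in small intestine, with the call lost without library 3 or 4 (adjusted p = 0.0554 and 0.0545). Of 10 Paneth markers tested, 1 was higher (Mmp7, also a bile duct marker above) and 2 were lower, with 1 lower without gall bladder library 1 or 3. The Paneth lysozyme Lyz1 was at 1.41, 0.365 and 1.46 CPM (log2 difference -5.36 ± 1.11, adjusted p = 0.00173). Of 18 enterocyte markers, 6 were lower and 1 higher; 4, 4 and 8 were lower without gall bladder libraries 1, 3 and 4 in turn, and 15 against the EDTA tissues alone.

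Of 10 T and B cell markers, 2 were higher, Lck and Cd79b, beside 12.7% of all genes tested. Lck, a Src family kinase, was at 23.2, 20.3 and 40.0 CPM, above all 15 others (log2 difference 3.39 ± 0.76, adjusted p = 0.00322). The leukocyte antigen gene Ptprc, whose protein CD45 was excluded by the sort, was at 171, 167 and 94.9 CPM, with 148 ± 19.8 in small intestine and 106 ± 19.7 in colon (log2 difference 0.77 ± 0.38, not called). The summed level of T and B cell markers was 62.9, 51.2 and 146 CPM in gall bladder libraries 1, 3 and 4, 23.3 to 35.2 in small intestine, 3.31 to 6.75 in colon, 31.7 to 72.6 in thymus and 0.115 to 123 in trachea, and 2 of the 13 listed had no gall bladder count. Of 12 myeloid and mast cell markers, Csf1r, Cd68 and Kit were called higher and Lyz2 lower; 1 was higher without gall bladder library 4, and none lower without gall bladder library 3 or small intestine library 2. Their summed level was 248, 451 and 459 CPM in gall bladder libraries 1, 3 and 4, 93.1 to 116 in small intestine, 127 to 138 in colon, 428 to 628 in thymus and 2079.5 to 3878 in trachea, and the part of such cells in the other results was not tested. No fibroblast, smooth muscle or erythroid marker was called with all libraries; 1 fibroblast or smooth muscle marker was lower without gall bladder library 3 or trachea library 1, 2 or 4, and 2 without trachea library 3. Dnah5, a dynein heavy chain of motile cilia, was at 602, 576 and 561 CPM against 293 ± 52.4 in colon (log2 difference 4.29 ± 0.67, adjusted p = 1.30e-04). Of 12 airway basal and ciliated markers tested, however, only Dnah5 and Foxj1 were higher and 4 were lower (median log2 difference -2.96). Without gall bladder library 4, 1 was higher and 2 lower, and 1 was lower without gall bladder library 3 or small intestine library 2.

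Genes induced during tissue dissociation differed between the gall bladder libraries. The summed level of 21 such genes was 12076, 17247 and 26194 CPM in gall bladder libraries 1, 3 and 4, 6709 to 8096 in small intestine, 21618 to 25365 in colon, 8581 to 9753 in thymus and 11945 to 16739 in trachea. Nr4a1, an immediate early nuclear receptor, was at 251, 859 and 1319 CPM, and Atf3, a stress factor, at 523, 904 and 1100.4 CPM, both highest in library 4; colon was at 609 ± 97.3 and 983 ± 165. Of the 21 genes, 6 were higher and 2 lower, and Klf4, a factor of differentiated epithelium, was lower than in each tissue, at 162, 87.1 and 92.4 CPM (log2 difference -1.67 ± 0.27, adjusted p = 1.88e-04). The part of dissociation in the other differences was not tested.

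Mitochondrial ribosomal RNAs and the noncoding RNA Rn7sk were among the most counted transcripts called higher. mt-Rnr1 was at 36461, 37325 and 34237 CPM and mt-Rnr2 at 23162, 24945 and 29149 CPM, with small intestine at 43291 ± 11267 and 28942 ± 7982; against the EDTA tissues their log2 differences were 0.0083 and 0.021. Rn7sk, the 7SK RNA of transcription control, was at 8299, 6686 and 3121 CPM, with 1361 ± 356 in colon (log2 difference 4.76 ± 0.34, adjusted p = 1.98e-08). It is not polyadenylated, and the libraries were made from poly(A) RNA; the part of RNA capture in this value was not tested.

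Gall bladder libraries varied among themselves. Of 4011 genes with at least 50 CPM on average in gall bladder, the median range over the 3 libraries was 1.08 on the log2 scale, and 73 genes ranged over more than 4. The biological coefficient of variation (the square root of edgeR's common dispersion within a group) was 1.16 in gall bladder, 1.28 in trachea, 0.816 in thymus, 0.695 in colon and 0.496 in small intestine. Airway secretory genes were present in library 1: Scgb1a1 was at 252, 0.329 and 0.695 CPM and Bpifa1 at 161, 0.402 and 0.546 CPM, with 23305 ± 20205 and 20398 ± 10444 in trachea. Neither was called with all libraries, and without library 1 they were lower (adjusted p = 0.00203 and 8.49e-04); 7 of 10 airway secretory markers were then called lower, against none with it. The summed level of these markers was 776, 76.6 and 44.2 CPM in gall bladder libraries 1, 3 and 4, 7.54 to 243 in small intestine, 17.5 to 26.6 in colon, 412 to 1080.3 in thymus and 36606 to 139531 in trachea.

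Other genes with the widest ranges were high in 1 or 2 of the 3 libraries. Sema5b, an axon guidance semaphorin, was at 42.3, 172 and 0.0744 CPM, Gdpgp1 at 0.307, 137 and 130.4, Lmln at 0.461, 50.6 and 138 and Aifm2 at 0.692, 2.63 and 201. Tnfrsf1b, a receptor of tumour necrosis factor, was at 148, 129 and 0.819 CPM, and fibronectin (Fn1) at 0.973, 160.1 and 38.7. The calls of Sema5b, Lmln, Aifm2 and Fn1 each failed without 1 library (adjusted p = 0.195 without library 3, 0.117 and 0.792 without library 4, and 0.0979 without library 3).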

How the data were processed

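RNA-seq libraries of sorted tuft cells were compared through the raw count table of each library. The deposited counts per gene were whole numbers made by the submitters; STAR, DESeq2 and GRCm38 are named in the submitters' processing notes, without versions, and the sources used here do not give the counting step. Poly(A) RNA was amplified without molecular identifiers, per the labels' protocols, so counts are reads and not molecules. Of 43432 gene IDs, 42548 were matched to GENCODE M21 names, and the rest, 884, held 0.0986% of counts.

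edgeR 4.0.16 (R 4.3.3) was fitted to the 18 tuft libraries: TMM scaling, filterByExpr over the 5 groups, a quasi-likelihood F test of gall bladder against the unweighted mean of the 4 other groups and against each, two-sided, Benjamini-Hochberg adjustment over 19850 genes, and calls at an adjusted p under 0.05 with a fold of at least 2. Standard errors were derived from the F statistic and are approximate. The code was checked on simulated data. Named genes were the 12 largest changes each way without overlap and with at least 20 CPM, 12 restricted and 6 lower-than-each genes by smallest pairwise change, 8 with the most counts, 8 with the widest range within gall bladder at 50 CPM or more, and list members. The members and the 39 gene lists were chosen with earlier results of these data known, so no list is independent evidence; some members are counted but not reported by name here. Alternatives were DESeq2 1.42.0, RLE size factors, 2 other filters, no fold threshold, limma 3.58.1 voom with sample weights, the replicate block, EDTA tissues only, no trachea, and leaving out each library. Library totals ran from 25739248 to 70243068. Non-tuft libraries entered no comparison.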

Additional observations from a re-analysis of the deposited data

Results flagged for a closer look

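Among 301 groups of 4 libraries examined for the printed genes with at least 20 CPM on average, 26 had 1 library far from the other 3, and chance flags about 1 in 20 groups. No gall bladder or small intestine library could be examined in this way, since those groups hold 3 libraries. In colon tuft the library standing apart was the highest for Slc4a4 at 165 CPM in library 1 (the others 111 to 119.5), Vav1 at 317 CPM in library 4 (the others 214 to 231) and Cd74 at 516 CPM in library 2 (the others 138 to 201). The highest colon library also stood apart for mt-Rnr1 at 33831 CPM in library 1 (the others 27993 to 28986). In thymus tuft the library standing apart was the highest for Foxa1 at 97.9 CPM in library 3 (the others 78.1 to 80.6), Aqp3 at 41.1 CPM in library 2 (the others 16.3 to 18.2) and Kcnq1 at 69.6 CPM in library 2 (the others 41.6 to 43.6). The highest thymus library also stood apart for Muc13 at 208 CPM in library 1 (the others 146 to 154), Sqle at 130.3 CPM in library 1 (the others 125 to 125) and Dclk1 at 1292 CPM in library 4 (the others 933 to 991). The highest thymus library also stood apart for Tas1r3 at 178 CPM in library 2 (the others 109.6 to 118), Ccl25 at 377 CPM in library 3 (the others 211 to 235) and Gdpgp1 at 39.9 CPM in library 4 (the others 14.2 to 17.3). The lowest thymus library stood apart for Ptgs1 at 421 CPM in library 3 (the others 495 to 502), Xaf1 at 26.6 CPM in library 3 (the others 39.5 to 41.4) and H2-Ab1 at 1576 CPM in library 1 (the others 1986 to 2046). In trachea tuft the library standing apart was the highest for Foxa1 at 1148 CPM in library 2 (the others 427 to 501), Rasgrf2 at 69.4 CPM in library 1 (the others 14.9 to 23.3) and Krt7 at 186 CPM in library 3 (the others 57.6 to 67.1). The highest trachea library also stood apart for Slc9a2 at 64.0 CPM in library 3 (the others 18.1 to 20.7), Fdft1 at 680.2 CPM in library 2 (the others 187 to 263) and Ifi47 at 54.9 CPM in library 3 (the others 13.9 to 15.6). The highest trachea library also stood apart for Usp18 at 99.3 CPM in library 4 (the others 12.7 to 22.7), Foxred2 at 139.7 CPM in library 3 (the others 31.8 to 35.3) and Gdpgp1 at 194 CPM in library 4 (the others 1.68 to 27.8). The lowest trachea library stood apart for mt-Rnr2 at 2625 CPM in library 1 (the others 4881 to 5266).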

How the results depend on the processing

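The 4 counts of calls kept to within 1.5 times of their value under most alternatives, with these exceptions. Genes higher than the mean of the others numbered 1631 with voom weights and 1643 with the replicate block, against 2521. Genes lower than that mean numbered 3328 with DESeq2, 607 with voom weights and 2920 without trachea, against 1744. The restricted set of 184 held 288 genes with DESeq2, 311 with voom weights, 1093 against the EDTA tissues alone and 631 without trachea. Genes lower than in each tissue numbered 697 with DESeq2, 95 with voom weights, 1502 against the EDTA tissues alone and 1077 without trachea, against 312. The EDTA comparison tests 2 tissues and that without trachea 3, so fewer pairwise calls are needed; the cause of the other shifts was not tested. Leaving out 1 library at a time gave 104 to 237 restricted genes and 207 to 368 genes lower than in each; the lowest values, 104, 115 and 106 restricted genes, came without small intestine libraries 2, 3 and 4, and 207 without small intestine library 2.

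Among printed genes called with all libraries or in the alternative itself, the direction turned for these (log2 difference). Against the EDTA tissues alone, Hnf4a was at -1.14, Gata6 at -0.40, Cdx1 at -2.06, Nr1h4 at -2.57, Slc9a3 at -0.084, Krt18 at -0.11, Siglecf at -0.27, Ffar3 at -0.087 and Tas1r3 at 2.29. Without trachea, Cdx1 was at -1.62, and with each library left out in turn Aifm2 ran from -0.96 (without gall bladder library 4) to 5.69 (without trachea library 1). Without a call on either side, the sign also changed in some alternative for 9: Nkx2-1, Krt19, Alb, Nr1h4, Pou2f3, Il25, Tas1r3, Scgb1a1 and Bpifa1. Of 169 printed genes 149 were called; of those called, 101 kept direction and call in all 27 alternatives that gave a value, 7 turned direction in at least 1, 43 missed the threshold in at least 1, and 21 missed it without a gall bladder library.

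Replicate numbers were not taken to pair the libraries. Same-numbered libraries of different groups deviated together with correlations of -0.023 to 0.13 (32 pairs), and others with -0.074 to 0.038 (97 pairs). The same-numbered pairs of colon and thymus were at 0.063, 0.069, 0.071 and 0.078. Those of small intestine and trachea were at 0.044, 0.064 and 0.131, so all pairs of both kinds lay above 0.038. Gall bladder and trachea were at 0.086 for number 1 but at 0.019 and 0.008 for numbers 3 and 4. Whether libraries of 1 number shared a mouse or a batch was not tested. The fit with the replicate block called 1643 genes higher, 1357 lower, 150 higher than in each tissue and 226 lower than in each. At these depths, genes at 0 in gall bladder are limited to 3 counts per library, for counting error only.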

Other observations

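Some abundant genes of the restricted set lie on none of the lists and were chosen after their values were seen. Clu, a secreted chaperone, was at 2859, 2539 and 2466 CPM in the gall bladder libraries and 392 ± 47.8 in thymus, the next highest group, with at most 452 CPM in any other library (log2 difference 6.50 ± 0.52, adjusted p = 8.90e-08; edgeR quasi-likelihood test). Its gall bladder values lay close together and far above the rest.

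Several proteins of the endoplasmic reticulum were also in that set. Hspa5, its main HSP70 chaperone, was at 2397, 2014 and 1977 CPM against at most 1119 CPM in any other tuft library (log2 difference 1.63 ± 0.23, adjusted p = 5.35e-05). Hyou1, another chaperone, was at 821, 558 and 831 CPM against at most 336 (log2 difference 1.81 ± 0.18, adjusted p = 8.49e-07). The ubiquitin ligase Syvn1 was at 549.6, 671 and 332 CPM against at most 263, and the stress kinase Eif2ak3 at 189, 60.1 and 99.7 CPM against at most 53.0. Ddit3, a transcription factor induced by stress of that compartment, was at 193, 201 and 159 CPM against at most 93.6 (log2 difference 2.05 ± 0.27, adjusted p = 1.80e-05). In all of these the 3 gall bladder libraries lay above the 15 others. That also held for 162 of the 184 genes of the restricted set, from which these were chosen, and for 2.77% of all genes tested. Other genes of the endoplasmic reticulum are not reported here. Without library 1, Syvn1 and Eif2ak3 were no longer called against each tissue, and without library 3 neither were Syvn1 and Ddit3. No test of these genes as a group was made.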
